A study of Homo sapiens with 9 samples.

Results

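MYC, its partner MAX and the proteins that compete with MYC for MAX were followed at the mRNA level in SLAM-Seq libraries of MCF10A, a human mammary epithelial line that is not transformed. The 9 genes were MYC, MAX, MXD1, MXI1, MXD3, MXD4, MNT, MGA and MLX, out of 26869 genes in the table. They were chosen by their symbols with these measurements already known, so their values are a description and carry no p-value. They accounted for 26 of the 56868 rows and, once rows of equal length and equal values were merged, for 15 of the 34637 distinct intervals at the 3′ ends of transcripts.

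All cells carried a JUN knockout, made in clones grown from single cells, and expressed a JUN-AID fusion protein together with TIR1, a plant receptor that sends the tagged protein to degradation when indole-3-acetic acid (IAA) is added. The group without 4sU (n = 3) was not labelled, and the labels do not say whether it received DMSO. The group DMSO 4sU (n = 3) received DMSO and then 100 µM 4-thiouridine (4sU) for 1 h, and the group IAA 4sU was given 100 µM IAA for 1 h before the same 4sU pulse. The 3 IAA columns held identical values in all 56868 rows and were counted as 1 library, so IAA was compared without a test. The study describes its SLAM-Seq replicates as biological.

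MYC is a basic helix-loop-helix leucine zipper protein that binds E-box DNA as a heterodimer with MAX and activates genes of growth, ribosome assembly and metabolism. MXD1, MXI1, MXD3, MXD4 and MNT also pair with MAX and bring in SIN3 and histone deacetylase complexes, and MGA joins MAX to a Polycomb-type complex, so that these proteins oppose MYC at shared sites. MLX is a MAX-like protein that pairs with MLXIP and MLXIPL, the glucose-sensing arm, and also with MXD1, MXD4 and MNT. MYC mRNA and protein are both known to be short-lived, and MYC is known as an early growth factor response gene in epithelial cells.

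Since each measurement was made at the 3′ end, the 3′ untranslated regions were read from the GRCh37 genome with the GENCODE annotation, and all 9 genes had one whose length matched a measured interval within 20 bases. For MAX this was the interval of 1355 bases, while its levels and rates come from the interval of 1540 bases, which shares nearly all its reads. AU-rich elements built on ATTTA are a known feature of short-lived mRNAs and are bound by proteins such as ZFP36. The longer form TATTTAT was found in 3 of the 9 regions, in MAX, MXD1 and MGA. These 3 stretches are shown because they are the only ones of this form in the network, with TATTTAT in capitals, written 5′ to 3′ on the strand of the gene.
MAX, GRCh37 chr14:65542351-65542375, minus strand: atgttttgaTATTTATttcctgcta
MXD1, GRCh37 chr2:70166641-70166665, plus strand: tataaatacTATTTATtcattttat
MGA, GRCh37 chr15:42060574-42060598, plus strand: ctgtaaagaTATTTATatttttgta
TATTTAT was present in 35% of 8123 matched 3′ untranslated regions of genes with at least 20 reads on average. For regions of the length of MAX (1000 to 2000 bases) the share was 36.2%, for that of MGA (2000 to 3500 bases) 55.4% and for that of MXD1 (3500 to 6000 bases) 71.6%.

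The shorter ATTTA was unevenly spread over the network. MYC held 4 in 479 bases, or 8.35 per kb, beside a median of 1 among 807 regions of 400 to 600 bases and a median of 1.73 per kb over all regions. MXD1 held 10, equal to the median of 10 among regions of 3500 to 6000 bases. MXI1 and MGA held 4 each, below the median of 6 among regions of 2000 to 3500 bases. MAX held 3 and MLX 2, where the median among regions of 1000 to 2000 bases was 3. MXD3, MXD4 and MNT held none, although 96.1% of the 1483 regions of 2000 to 3500 bases, the class of MXD4 (3115 bases) and MNT (2831 bases), held at least 1. Letters alone do not show that a protein binds there. The share of T differed as well, with 37.6% in MYC, 20.5% in MXD3 and MXD4 and 21.8% in MNT. It was 27.1% to 33.6% in the other members, where the median of all regions was 30.4%. The ATTTA counts were compared by length and not by T content, whose part in them was not tested.

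MAX dimers bind CACGTG, the canonical E-box, which reads the same on both strands. In RefSeq promoters of GRCh38.p14, from 250 bases before to 50 after the start, 13 promoters of 8 members were found, and 3 of them held CACGTG. They are shown with the E-box in capitals, 5′ to 3′ on the strand of the gene, because no other member promoter in the table held one.
MXD4, GRCh38.p14 chr4:2262333-2262356, minus strand: ccgggccacCACGTGctgttgcta
MNT, GRCh38.p14 chr17:2401239-2401262, minus strand: tgcccgggcCACGTGtgcgcgcgc
MLX, GRCh38.p14 chr17:42567041-42567064, plus strand: ggcgcgggtCACGTGggcacgcca
The E-box began 238 bases before the start in MXD4, 193 before it in MNT and 50 before it in MLX. The same 6 letters stood in 9.41% of the 13329 promoters of genes with at least 20 reads on average and in 7.26% of all 35116 promoters.

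The recovered depth was 18997637 to 24014195 reads per library. The conversion rate is the share of T positions read as C, and its median over 7005 genes with at least 200 reads was 0.0574% to 0.0599% in the libraries without 4sU, 0.178% to 0.235% with DMSO and 4sU and 0.219% in the library with IAA. All 8 basal epithelial markers were above 1 CPM in every library, with a summed level of 3563 to 4632 CPM, and PTPRC (leukocytes), COL1A2 (fibroblasts) and VWF (endothelium) were at 0 in every library. Other markers of these lists were found at low levels, and the summed lists reached 3.26 to 9.82 CPM for fibroblasts (3 genes, mostly COL1A1), 1.68 to 7.93 CPM for leukocytes (2 genes, all CD68) and 0.179 to 1.08 CPM for endothelium (2 genes, all PECAM1). The 4 luminal markers summed to 23.0 to 39.5 CPM, mainly GATA3 and FOXA1. The part of other cell types in the results was not tested. JUN mRNA was 50.2 ± 6.60 CPM (SD, n = 3) without 4sU, 25.4 ± 4.95 CPM (SD, n = 3) with DMSO and 4sU and 62.9 CPM with IAA. The degron acts on the JUN protein, so the mRNA does not check its loss.

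MYC stood apart from the other members in both measures. Without 4sU it was the most abundant member and ranked 406 of 11444 genes, and with 4sU its level was 8.20-fold lower while its conversion rate was the highest of the network. CPM are compared between genes without division by length, because a 3′ end library yields about one fragment per mRNA. MYC mRNA was 101, 206 and 230 CPM in the 3 libraries without 4sU and 21.8, 22.0 and 21.7 CPM in those with DMSO and 4sU. The unlabelled libraries were spread widely, replicate 1 lowest, whereas the labelled ones were nearly equal, and the groups did not overlap. By replicate number the level without 4sU was 4.64-fold, 9.37-fold and 10.6-fold that with 4sU.

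The MYC conversion rate was 0.0451%, 0.0466% and 0.0437% without 4sU and 5.63%, 5.97% and 4.30% with DMSO and 4sU. The means were 0.0451 ± 0.00144% and 5.30 ± 0.882% (SD, n = 3 each), a factor of 117. The unlabelled rates lay below the library medians, and the labelled ones were above those of nearly all genes. Among 7005 genes with at least 200 reads MYC ranked 11 by labelled rate, and over all 11444 genes, which include rates from few reads, it ranked 62. The median gene had a labelled rate of 0.231%. The rates of MYC rest on 436 to 4619 reads per library, and the number of T positions covered is not part of the table.

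**Figure D1:**
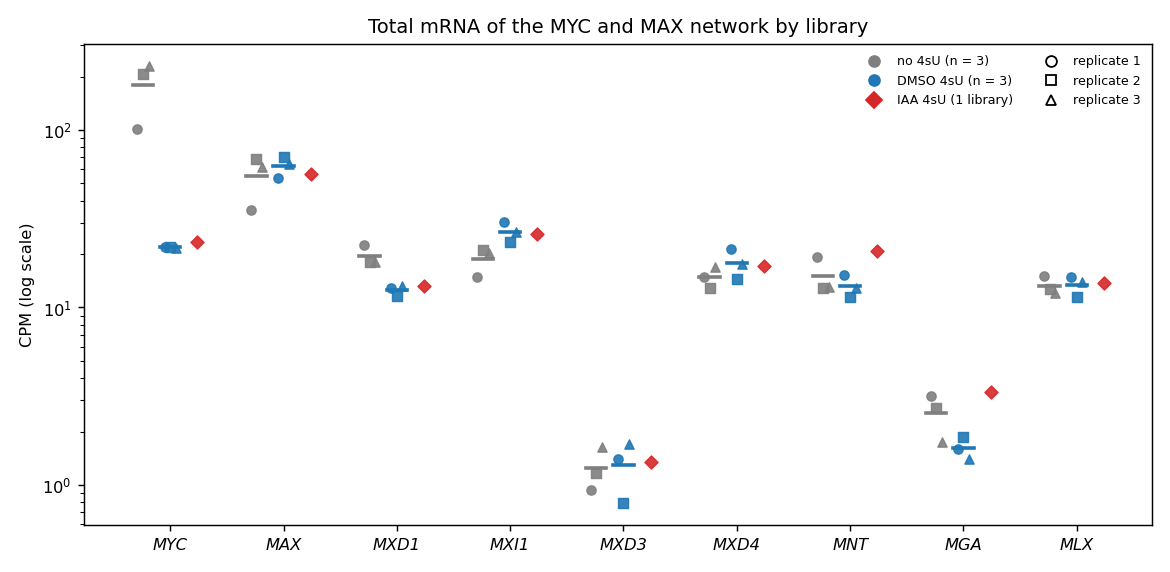
Total mRNA in CPM (log scale) of the 9 members in every library. Points are libraries, with the replicate number given by the shape, bars are group means, and the red diamond is the single IAA library. MYC lies at 101 to 230 CPM without 4sU and at 21.7 to 23.4 CPM in the 4 labelled libraries.

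MAX, the shared partner, had an ample and little labelled mRNA. Its level was 35.5, 69.0 and 61.5 CPM without 4sU and 53.9, 70.7 and 64.0 CPM with DMSO and 4sU, so that the groups overlapped and replicate 1 was lowest in both. Its conversion rate was 0.0538%, 0.0486% and 0.0412% without 4sU and 0.0651%, 0.0518% and 0.122% with it. The labelled mean of 0.0797 ± 0.0374% (SD, n = 3) ranked 6712 of 7005 genes, at the opposite end of the range from its partner MYC. The table lists 6 distinct intervals for MAX. The 2 longest share nearly all their reads (718 and 716 in the first library without 4sU), the intervals of 561 and 444 bases held 24 to 58 reads per library with rates of 0 in 3 of the 7 libraries, the interval of 87 bases held at most 3 reads, and that of 106 bases held none.

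The MXD repressors did not behave alike. MXD1, known as a gene induced on differentiation, was 22.5, 18.1 and 18.1 CPM without 4sU and 12.9, 11.6 and 13.2 CPM with DMSO and 4sU. All labelled libraries lay below all unlabelled ones, with a mean ratio of 1.56. Its conversion rate was 0.0927%, 0.0655% and 0.0388% without 4sU and 0.956%, 0.932% and 0.646% with it, a 12.9-fold higher mean that ranked 342 of 7005 genes. After MYC and MNT this was the highest rate of the network.

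MXI1, also called MXD2, moved the other way in total mRNA. It was 14.8, 21.0 and 20.2 CPM without 4sU and 30.3, 23.4 and 26.6 CPM with DMSO and 4sU, and the groups did not overlap, with the widest gap between the replicate 1 libraries. Its conversion rate was 0.101%, 0.0892% and 0.107% without 4sU and 0.269%, 0.163% and 0.122% with it. The labelled mean was 1.86-fold the unlabelled one and ranked 3953 of 7005, close to the middle of all genes.

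MXD4 was 14.8, 12.9 and 16.8 CPM without 4sU and 21.2, 14.5 and 17.5 CPM with DMSO and 4sU, with overlapping groups. Its conversion rate was 0.0748%, 0.121% and 0.0895% without 4sU and 0.163%, 0.568% and 0.247% with it. The labelled rates were all higher than the unlabelled ones, but they differed among themselves by more than the lowest of them differed from the unlabelled group. MXD3, known for its expression in dividing cells, was the least abundant member, with 0.791 to 1.69 CPM in the 6 libraries. Its rates rest on 19 to 34 reads per library and were 0 in 1 of the 3 unlabelled and 2 of the 3 labelled libraries, so a difference was not detectable at this depth. A second MXD3 interval held 2 reads in 1 library and none in the others.

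Of the large repressors, MNT was well covered and MGA was not. MNT, the most widely expressed MYC antagonist, was 19.1, 12.9 and 13.1 CPM without 4sU and 15.3, 11.4 and 12.9 CPM with DMSO and 4sU. The groups overlapped, yet MNT had the second highest conversion rate of the network: 0.0162%, 0.0195% and 0.0462% without 4sU and 1.17%, 1.26% and 1.89% with it. The labelled mean of 1.44 ± 0.394% (SD, n = 3) was 52.8-fold the unlabelled one and ranked 140 of 7005 genes. MNT thus combined a high labelled rate with a total level whose groups overlapped, whereas MYC combined a high rate with a much lower level.

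MGA was 3.16, 2.73 and 1.74 CPM without 4sU and 1.60, 1.87 and 1.39 CPM with DMSO and 4sU. Its conversion rate was 0.0758%, 0.0808% and 0.162% without 4sU and 0%, 0% and 1.71% with it, from 28 to 64 reads per library. The labelled mean rests on replicate 3 alone. MLX was 15.1, 12.6 and 12.1 CPM without 4sU and 14.8, 11.4 and 14.0 CPM with DMSO and 4sU, with nearly equal means. Its conversion rate was 0%, 0.0860% and 0.0629% without 4sU and 0.265%, 0.289% and 0.588% with it, and the groups did not overlap.

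**Figure D2:**
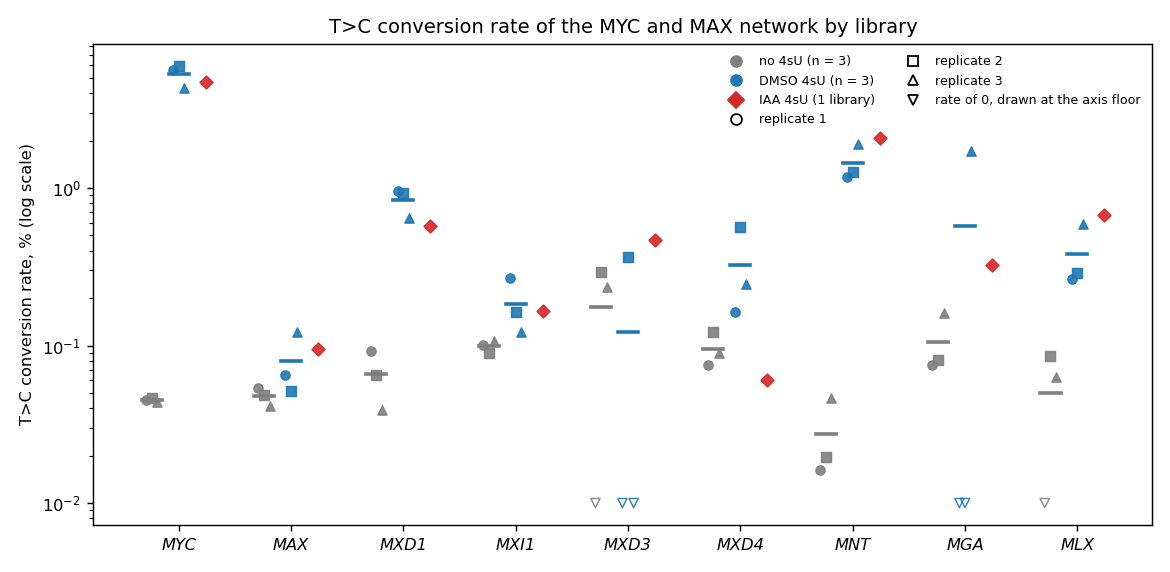
T>C conversion rate in percent (log scale) of the 9 members in every library, with points, shapes and bars as for the CPM plot and open triangles for a rate of 0. The labelled libraries of MYC, MNT and MXD1 lie at 4.30% to 5.97%, 1.17% to 1.89% and 0.646% to 0.956%, whereas those of MAX reach at most 0.122%.

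The order of the levels changed with 4sU. Without 4sU the means ran MYC 179 ± 68.4, MAX 55.3 ± 17.6, MXD1 19.6 ± 2.53, MXI1 18.6 ± 3.37, MNT 15.1 ± 3.54, MXD4 14.8 ± 1.99, MLX 13.3 ± 1.63, MGA 2.54 ± 0.731 and MXD3 1.24 ± 0.354 CPM (SD, n = 3 each). From MXD1 to MLX each neighbour overlapped with the next, while MYC, MAX, MGA and MXD3 were each separate from their neighbours. With DMSO and 4sU the means ran MAX 62.9 ± 8.43, MXI1 26.8 ± 3.50, MYC 21.9 ± 0.162, MXD4 17.7 ± 3.38, MLX 13.4 ± 1.77, MNT 13.2 ± 1.95, MXD1 12.6 ± 0.851, MGA 1.62 ± 0.241 and MXD3 1.30 ± 0.461 CPM (SD, n = 3 each). MYC was thereby below MAX and MXI1, and the neighbours from MXD4 to MXD1 and the pair of MGA and MXD3 overlapped.

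The balance between MYC and its antagonists followed mainly the level of MYC. The ratio of MYC to the summed CPM of the 6 antagonists MXD1, MXI1, MXD3, MXD4, MNT and MGA was 1.35, 3.003 and 3.21 without 4sU, and 0.264, 0.347 and 0.296 with DMSO and 4sU. The summed antagonists were 68.7 to 75.3 CPM without 4sU and 63.5 to 82.7 CPM with it, so their ranges overlapped. The ratio of MYC to MAX was 2.86, 2.99 and 3.74 without 4sU and 0.405, 0.312 and 0.339 with it. These are ratios of mRNA and not of protein.

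The fit over all genes gives these differences a common scale. In limma on log2(rate + 0.0005), 4 of the 9 members were past the threshold of an adjusted p of 0.05 in the higher direction, where 50.4% of the 10853 genes tested were. The members were chosen with these rates known, so nothing is read from this count. The differences in log2 rate, 4sU minus no 4sU, were 5.80 (SE 0.34) for MYC, 4.26 (SE 0.36) for MNT, 2.96 (SE 0.35) for MXD1 and 2.16 (SE 0.50) for MLX. MLX was no longer past the threshold when any 1 of the 3 replicates was left out, which left 3 members. Those not past it were MXD4 with 1.24, MXI1 with 0.61, MAX with 0.37, MGA with 0.11 and MXD3 with -0.75. In 6 members (MYC, MXD1, MXI1, MXD4, MNT and MLX) all labelled rates lay above all unlabelled ones, as in 63% of all genes tested.

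In total mRNA, limma on log2(CPM + 1) put 1 of the 9 members, MYC, past the threshold in the lower direction, against 1.63% of 11444 genes. The members were chosen with these levels known, so nothing is read from this count either. MYC had a log2 difference of -2.93 (SE 0.30). MXD1, with -0.63 (SE 0.15), also had its labelled libraries all below the unlabelled ones, which held for 8.95% of all genes. MXI1, with 0.47 (SE 0.20), had them all above, which held for 10.4%, but without the replicate 1 libraries its difference was 0.16. For the other 6 members, whose groups overlapped, the differences lay between -0.44 (MGA) and 0.20 (MXD4). 4sU and the addition of DMSO cannot be told apart in this comparison. Fewer cells that express a gene and less of its mRNA per cell cannot be told apart in bulk samples.

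MYC lay at the edge of the joint distribution of labelled rate and total mRNA. Among the 7005 genes with at least 200 reads, 10 had a labelled rate at least as high as that of MYC, and their median log2 difference in total mRNA was -2.11. Only 2 genes of these 7005, both among the 10, were lower by at least as much as MYC. Over all 11444 genes tested, 4 were.

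**Figure D3:**
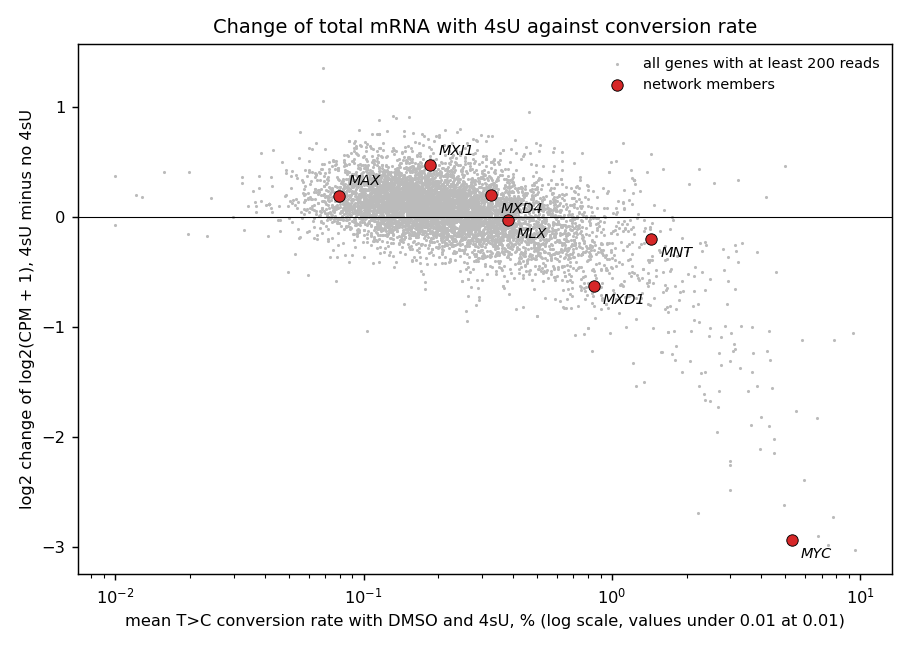
Log2 difference of log2(CPM + 1) between DMSO 4sU and no 4sU against the mean labelled conversion rate in percent (log scale) for genes with at least 200 reads (grey), with the members that reach this depth in red. MYC lies at the lower right with a rate of 5.30% and a difference of -2.93, while MNT lies at 1.44% and -0.20.

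The genes whose total mRNA profile was nearest to that of MYC were named by the Euclidean distance of the centred log2(CPM + 1) values over the 7 distinct libraries, among 6998 other genes with at least 200 reads. The nearest was the non-coding transcript NR_026778 at a distance of 0.41, where the median gene was at 4.07. Its level was 46.8, 96.5 and 84.5 CPM without 4sU, 10.9, 11.2 and 10.2 CPM with DMSO and 4sU and 10.6 CPM with IAA and 4sU. Like MYC it was lowest in replicate 1 of the unlabelled libraries and nearly level in the labelled ones, which follows from its choice by this profile.

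The next were CLK1, a kinase of splicing factors, at 0.71, the chemokine CXCL2 at 0.90, the kinase PLK2 at 1.02 and the Notch effector HES1 at 1.06. CLK1 averaged 27.7 CPM without 4sU and 4.19 CPM with DMSO and 4sU, at a labelled rate of 2.99%, measured at the 3′ end of transcripts listed as non-coding. CXCL2 averaged 69.0 and 8.03 CPM at a labelled rate of 7.42%. For PLK2 the means were 25.2 and 4.86 CPM at 4.52%, and for HES1 26.8 and 3.68 CPM at 4.93%. The labelled rates of all 5, NR_026778 included with 2.22%, lay far above the median gene. The likeness is one of profile over libraries that share the 4sU contrast.

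The genes that work with the network were examined as a list of 82, chosen from general knowledge of the pathway with earlier results of these data known. Of these 81 were found, and 74 could be tested for the rate and 75 for total mRNA. The conversion rate was higher with 4sU in 37 of 74 and lower in none, a share close to the 50.4% of all genes, with a median log2 difference of 1.02 where all genes had 1.25. This count includes ZBTB17, ARRDC4 and GNL3, whose labelled libraries alone met the filter of the test. In total mRNA 1 of 75 fell and none rose, at a median of 0.09 where all genes had 0.03. With no adjustment, 4 were higher and 6 lower at p under 0.05, and DESeq2 put 3 past the threshold in the lower direction.

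No group count below is read as particular to the group, since 50.4% of all genes passed the same test and genes not past it can be labelled too. Among the MYC coactivators 3 of 13 passed, with a median log2 difference of 0.97. ZBTB17 is the MIZ1 protein through which MYC also represses. Its rates were 0 in all unlabelled libraries and 0.550%, 0.507% and 0.779% with DMSO and 4sU. Its level was only 1.93 to 4.37 CPM in these 6 libraries. It entered the test only through its labelled libraries, and equal rates of 0 have no spread, so no p-value is given. CCNT1, the cyclin of the elongation factor P-TEFb, went from 0.0404 ± 0.00447% to 0.678 ± 0.152% (SD, n = 3 each), with a log2 difference of 2.99 (SE 0.30, adjusted p = 0.00137). KAT5, a histone acetyltransferase, was higher by 1.51 (SE 0.44, adjusted p = 0.0312). MLXIP, the partner of MLX, was higher by 1.02 (SE 0.25, adjusted p = 0.0185), and MYCN, MYCL and MLXIPL were too low to be tested.

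Among the corepressors of MXD, MNT and MGA, 8 of 14 passed for a higher rate, with a median of 1.38 beside 1.25 for all genes. The scaffold SIN3A had the largest difference, 3.003 (SE 0.45, adjusted p = 0.00411), from 0.0330 ± 0.0145% to 0.666 ± 0.323% (SD, n = 3 each). Its paralogue SIN3B had 1.78 (SE 0.40, adjusted p = 0.0134). RYBP, of the Polycomb-type complex that holds MGA, had 2.31 (SE 0.32, adjusted p = 0.00307). The nuclear receptor corepressor NCOR1 had 1.56 (SE 0.34, adjusted p = 0.0124). No gene of this group passed in total mRNA in limma, and 2 were higher and 1 lower without adjustment.

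Of the genes of MYC protein turnover, 5 of 10 passed, with a median of 1.05. FBXW7, the ubiquitin ligase subunit that recognises phosphorylated MYC, had the largest difference, 3.49 (SE 0.39, adjusted p = 0.00187). GSK3B, the kinase that prepares MYC for FBXW7, had 1.74 (SE 0.31, adjusted p = 0.00650), the ligase HUWE1 had 1.11 (SE 0.29, adjusted p = 0.0225), the deubiquitinase USP22 1.05 (SE 0.22, adjusted p = 0.0110) and AURKA, a kinase that stabilises MYC proteins, 0.92 (SE 0.25, adjusted p = 0.0249). FBXW7 was 23.3 ± 2.07 CPM without 4sU and 14.3 ± 1.46 CPM with it (SD, n = 3 each), which did not pass the limma test over all genes (adjusted p = 0.0738).

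Of the proteins that bind AU-rich or other sites in MYC mRNA, 1 of 3 passed. ZFP36, which recruits the deadenylase machinery to AU-rich elements, had the largest rate difference of the list, 6.10 (SE 0.35, adjusted p = 0.000447), with 9.43%, 8.69% and 10.0% in the labelled libraries. It was also the pathway gene that fell in total mRNA, from 15.0, 15.1 and 9.16 CPM to 7.09, 4.71 and 5.78 CPM (log2 difference -1.06, SE 0.22, limma adjusted p = 0.0498). That call was lost without TMM scaling, with no filter, and when replicate 2 or replicate 3 was left out. With a minimum of 200 reads ZFP36 did not pass the filter and was not tested. The groups did not overlap.

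Of the classical MYC target genes 17 of 31 passed, with a median log2 difference of 0.91, below the 1.25 of all genes. The largest differences were those of the nucleolar proteins GNL3 (3.69, SE 0.45) and NOP56 (2.93, SE 0.39, adjusted p = 0.00296). Next came the cell cycle phosphatase CDC25A (2.88, SE 0.44, adjusted p = 0.00430), the cell cycle inhibitor CDKN1A (2.42, SE 0.35, adjusted p = 0.00357) and the RNA polymerase I subunit POLR1B (2.25, SE 0.32, adjusted p = 0.00338). GNL3 had rates of 0%, 0.0353% and 0% without 4sU and of 1.11%, 0.822% and 0.405% with DMSO and 4sU, at only 3.05 to 9.44 CPM. The labelled libraries of GNL3 alone met the filter of the test, so no p-value is given for it. CDKN1A is a gene that MYC is known to repress. In total mRNA none of the 31 targets passed in limma, and 2 were higher and 1 lower before adjustment. The 4sU pulse lasted 1 h and these libraries do not measure MYC protein. Whether the targets respond to the level of MYC was not tested.

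Both target genes of the MLX arm were past the threshold for a higher rate, but for ARRDC4 nothing is read from this. TXNIP, an inhibitor of glucose uptake, had rates of 3.78%, 4.21% and 3.02% with DMSO and 4sU against 0.0527 ± 0.00820% (SD, n = 3) without (log2 difference 5.17, SE 0.33, limma adjusted p = 0.000501). Its total mRNA was 69.0 ± 16.3 CPM without 4sU and 34.6 ± 5.63 CPM with it (SD, n = 3 each, limma adjusted p = 0.0735). ARRDC4, its paralogue, had rates of 0 in the 3 unlabelled libraries and of 3.63%, 1.84% and 1.62% in the labelled ones. Its level was only 2.21 to 3.53 CPM. Like ZBTB17, ARRDC4 entered the test only through its labelled libraries, so no p-value is given. The counts of genes past the threshold depend on all replicates, since 15, 16 and 21 of the pathway genes passed without replicate 1, 2 and 3, and 2597, 3037 and 2825 of all genes in place of 5470. The rate test also made more false calls on simulated data than its nominal share.

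**Figure D4:**
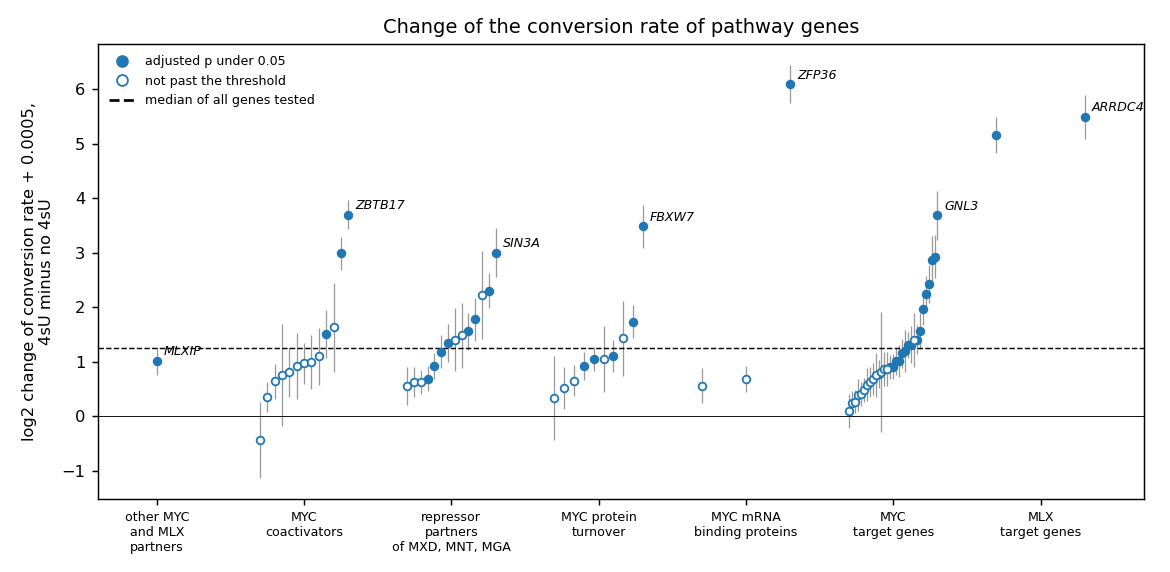
Log2 difference of conversion rate + 0.0005 between DMSO 4sU and no 4sU for each pathway gene tested, by function, with standard errors. Filled points are past an adjusted p of 0.05 in limma and the dashed line is the median of all genes, 1.25. ZFP36 with 6.10 lies highest, and 37 of 74 points are filled.

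Whether loss of JUN protein altered the network was addressed by the IAA library, which has no replicate. A gene was called when its IAA value was outside the range of the DMSO 4sU libraries and 1 log2 unit or more away from their mean. In total mRNA none of the 9 members was called, where 0.132% of 11375 genes were. Relative to the mean of the DMSO 4sU libraries, MYC differed by 0.02 on the log2 scale, with 23.4 CPM (95% exact Poisson interval of the reads 21.3 to 25.6 CPM) beside 21.7 to 22.0 CPM. The interval covers counting error only and holds all 3 DMSO values.

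MNT and MGA were the members farthest above DMSO in total mRNA. MNT was at 20.9 CPM (interval 18.9 to 23.0 CPM) in the IAA library beside 11.4 to 15.3 CPM, a log2 difference of 0.56. MGA was at 3.34 CPM (interval 2.59 to 4.24 CPM, 67 reads) beside 1.39 to 1.87 CPM, a log2 difference of 0.67. Without 4sU, MNT was at 12.9 to 19.1 CPM and MGA at 1.74 to 3.16 CPM, so the IAA values were above the unlabelled libraries too. MAX with -0.23 and MYC were also outside the range of the 3 DMSO libraries after TMM scaling, which makes 4 of 9 members, where 41.4% of all genes were outside it. MXD1, MXI1, MXD3, MXD4 and MLX lay within it.

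In the conversion rate, centred on each library's median, 2 of the 9 members were called, MXD3 and MXD4, where 20.7% of 11716 genes were. MXD4 was at 0.0609% in the IAA library beside 0.163%, 0.568% and 0.247%, a log2 difference of -1.78, and was below even the unlabelled libraries (0.0748% to 0.121%). MXD3 was at 0.467% from 27 reads, a log2 difference of 2.19, beside rates of 0 in 2 of the 3 DMSO libraries. MYC had 4.72% (log2 difference -0.31) and MXD1 0.570% (-0.67). After centring both were below all DMSO libraries, although the uncentred rate of MYC was above that of replicate 3, 4.30%. This makes 4 members outside the DMSO range, where 49.2% of all genes were. MNT had 2.09% (0.39), MLX 0.677% (0.67), MGA 0.326% (1.04), MXI1 0.167% (-0.23) and MAX 0.0952% (0.04), all within the DMSO range after centring. The uncentred MGA rate with IAA was below the DMSO mean of 0.570%. Its positive log2 difference comes from the DMSO libraries with a rate of 0. Without DMSO 4sU replicate 3, MGA and MLX were called as well, which makes 4.

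The balance was little different with IAA. MYC over the 6 antagonists was 0.285 and MYC over MAX 0.417, beside 0.264 to 0.347 and 0.312 to 0.405 with DMSO and 4sU. Of the pathway genes 0 of 75 were called in total mRNA and 7 of 75 in the rate, beside 0.132% and 20.7% of all genes. The share called in the rate was thus below that of all genes. The latter includes genes with few reads, whose rates are imprecise, so nothing is read from this difference. The 7 pathway genes called were RUVBL2, ZBTB17, SIN3B, E2F6, L3MBTL2, AURKA and ARRDC4, named after their values were seen. The largest of them was ARRDC4, at 0.174% with IAA beside 1.62% to 3.63% with DMSO (log2 difference -3.50). Its level was only 2.69 CPM with IAA and 2.21 to 2.74 CPM with DMSO and 4sU, so these rates rest on few reads. None of the 31 MYC target genes was called in either measure.

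**Figure D5:**
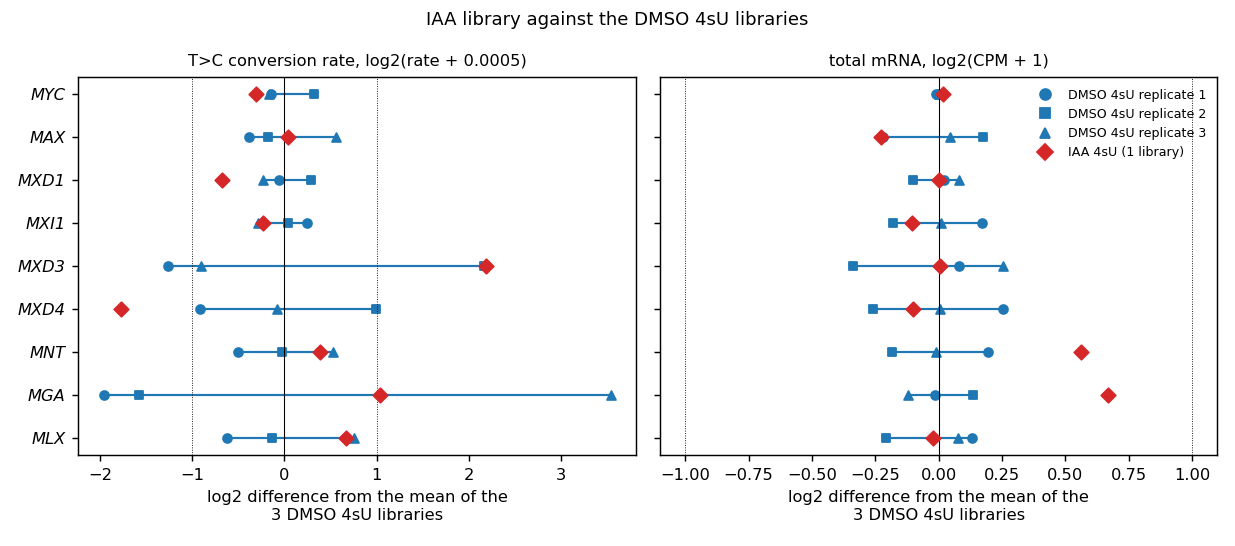
Log2 difference of the IAA library (red diamond) and of each DMSO 4sU library (blue) from the mean of the 3 DMSO 4sU libraries, for the conversion rate (left, centred on the library median) and total mRNA (right), with dotted lines at 1 log2 unit. MXD4 lies at -1.78 in the rate, and MNT and MGA at 0.56 and 0.67 in total mRNA.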

How the data were processed

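The authors made 3′ mRNA libraries (QuantSeq) from RNA treated with iodoacetamide and ran a Nextflow SLAM-Seq pipeline. The deposited table gives, per 3′ interval of a RefSeq transcript and per library, the conversion rate as a fraction of T positions, not corrected for background, and a signal that the authors call CPM. The processing notes name the build hg19 (GRCh37), and the pipeline's version is not given in the sources used here. All non-zero CPM were whole multiples of 1 read within a tolerance of 0.1 (100%), and reads and library totals were recovered from them. Of the per-sample columns, 0 were left unused.

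RefSeq identifiers were matched to symbols in 97.7% of rows, through a table of GRCh38.p14 that was used for names. Each gene was represented by its interval with most reads, and 19.7% of genes had several. The 9 members and the pathway list were chosen with earlier results of these data known. The rule for named genes took all members, up to 5 pathway genes per group and direction with the largest difference past the threshold, and the 5 genes nearest to MYC in profile. The values of 1 pathway gene that this rule took are not reported here. The test of the rates was limma (version 3.58.1 in R 4.3.3), run on log2(rate + 0.0005) for genes whose rate exceeded 0 in 3 or more of the 6 libraries. The test of total mRNA was also limma, run on log2(CPM + 1) after TMM scaling for genes with at least 20 reads on average. Both used trended, robust variances and Benjamini-Hochberg adjustment over all genes tested. Fold changes on these scales understate those of low values. edgeR 4.0.16 (quasi-likelihood) and DESeq2 1.42.0 on the recovered reads were alternatives. The fits were tested on simulated data.

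Replicate numbers paired the libraries in total mRNA, where deviations from the group means correlated by 0.406, 0.334 and 0.50 over 7008 genes, but not in the rate (-0.0151, -0.0135 and 0.000761). Tables were handled in Python 3.11.15 with pandas 2.3.3, and intervals came from scipy 1.17.1.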

Additional observations from a re-analysis of the deposited data

How the results depend on the processing

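With the replicate number as a block, 4 members and 26 pathway genes were higher in the conversion rate, and 1 member and 1 pathway gene were lower in total mRNA; no call of a member changed under the block. Leaving out each replicate in turn gave 15 to 21 pathway genes higher in the rate instead of 37, 2597 to 3037 of all genes instead of 5470, and 3 members instead of 4, MLX being lost each time. For total mRNA it gave 1 to 2 members lower and 0 to 4 pathway genes lower, each highest without replicate 1, where MXD1 joined MYC. All genes lower in total mRNA numbered 187, and 428, 32 and 37 without replicate 1, 2 and 3. DESeq2 put 386 genes, 2 members (MYC and MXD1) and 3 pathway genes in the lower direction, while edgeR put 183 genes there. The count of pathway genes lower was 0 without TMM, with no filter and with at least 200 reads, a filter that ZFP36 did not pass. With at least 200 reads 62 of all genes were lower. Leaving out each DMSO 4sU library gave 2 to 4 members called in the rate with IAA, with 4 called without replicate 3. MXD4 passed in the rate with at least 200 reads or with a rate above 0 in all 6 libraries, a filter that MLX did not pass. The rate difference of MGA was -0.99 with a pseudocount of 0.0001 instead of 0.11, from rates of 0. Of the alternative values for members, 4sU minus no 4sU, 12 moved by more than the spread between replicates and 187 did not. Of the 99 alternative values with IAA 0 did. For genes such as MGA and MXD3 the reads limit what could be detected, and the T coverage behind each rate is unknown.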
